A study of Mus musculus with 9 samples.

Results

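The Hox genes encode homeodomain transcription factors and lie in 4 clusters in the mouse, in the same order in which they are used along the head-to-tail axis of the embryo. Genes in the same place in different clusters form a paralogue group, numbered from the head end. In gut mesenchyme the combination of Hox genes is read as a position code, in which the groups with high numbers mark the caecum, colon and rectum, and Hox proteins bind DNA together with partners of the TALE family such as Pbx and Meis. In chick hindgut, Sonic hedgehog has been reported to induce posterior Hoxd genes.

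Members were taken by name as the genes called Hoxa, Hoxb, Hoxc or Hoxd with a number, each measured by its probe set with the highest mean. This gave 33 Hox genes of 18193 genes measured, out of 39 Hox genes in the RefSeq table. They were 9 Hoxa, 9 Hoxb, 7 Hoxc and 8 Hoxd genes. The remaining Hox genes of that table are not analysed here, and 3 probe sets that carry 2 Hox names were not used.

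Expression was measured on 9 Affymetrix arrays of cultured mesenchyme from the small intestine of C57Bl/6J embryos at E18.5, shortly before birth. The mesenchyme had been freed of epithelium, cultured for 48 h and exposed for 24 h to Shh ligand, to Ihh ligand or to Vehicle, the control, with 3 arrays for each. The 6 wells of a treatment were pooled at random into 3 samples, so p-values measure the spread between pools, and whether pools shared embryos is not known here. Shh and Ihh are the hedgehog proteins that gut epithelium secretes, and the comparison of interest is of treated with untreated mesenchyme. The labels name neither the ligand dose nor the stretch of small intestine in each well.

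Values are log2 expression after RMA (robust multi-array average), and the medians of the arrays lay between 5.87 and 5.92 log2. Each array's median is used below only to divide high from low readings. It is no detection limit, and RMA compresses low values. The 11 mesenchyme markers measured, such as Pdgfra and Foxf1, lay above the array medians on every array, with a summed level of 15.28 to 15.42 log2 with Shh, 15.37 to 15.43 with Ihh and 15.38 to 15.46 with Vehicle. Of the 11 epithelium markers 8 varied by more than 1 log2 unit over the 9 arrays, also between pools of the same treatment, whereas Epcam, Cdx1 and Cdx2 did not. Cdh1 lay at 7.04, 4.94 and 8.37 log2 with Shh, 7.98, 7.62 and 6.39 with Ihh, and 8.28, 6.66 and 4.71 with Vehicle. Ptch1, the hedgehog receptor gene that the pathway itself induces, rose with both ligands and lay at 10.41, 10.88 and 10.35 log2 with Shh and 10.57, 10.49 and 10.98 with Ihh, against 9.25, 9.11 and 9.06 with Vehicle (1.48 ± 0.14 log2 for both ligands, SE, adjusted p = 0.000622). Gli1, a hedgehog target and transcription factor, also rose with both ligands together, by 0.89 log2 (adjusted p = 0.0443).

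The upstream sequences of 3 Hox genes are shown because these genes, among the 19 measured Hox genes that the promoter table holds, came nearest to a difference between treatments. They are the 250 bases before the transcription start in RefSeq, build GRCm38.p6, Hoxd3 at chr2:74711743-74711992 (plus strand), Hoxd8 at chr2:74704365-74704614 (plus strand) and Hoxa5 at chr6:52204588-52204837 (minus strand). Capitals mark AGGTCA or its reverse complement TGACCT, the core motif bound by retinoic acid receptors.
Hoxd3: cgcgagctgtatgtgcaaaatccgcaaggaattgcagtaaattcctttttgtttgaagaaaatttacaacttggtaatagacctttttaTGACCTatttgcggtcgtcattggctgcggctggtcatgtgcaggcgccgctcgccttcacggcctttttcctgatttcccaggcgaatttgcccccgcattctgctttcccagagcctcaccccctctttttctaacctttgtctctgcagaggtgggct
Hoxd8: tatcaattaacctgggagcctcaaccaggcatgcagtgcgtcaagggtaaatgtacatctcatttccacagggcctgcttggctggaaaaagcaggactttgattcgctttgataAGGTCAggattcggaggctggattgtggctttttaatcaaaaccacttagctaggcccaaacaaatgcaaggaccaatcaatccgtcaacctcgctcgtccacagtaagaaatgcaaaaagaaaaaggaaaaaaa
Hoxa5: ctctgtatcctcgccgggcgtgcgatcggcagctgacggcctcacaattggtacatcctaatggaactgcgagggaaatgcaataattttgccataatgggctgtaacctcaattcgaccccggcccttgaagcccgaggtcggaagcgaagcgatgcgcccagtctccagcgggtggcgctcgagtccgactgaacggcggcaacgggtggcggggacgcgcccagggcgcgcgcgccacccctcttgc

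Each window was searched on both strands for 4 motifs, which did not overlap each other in the sequences shown. GACCACCCA, the motif bound by the Gli factors that carry hedgehog signals, was in 0 of 19 Hox windows and in 0.211% of 27025 windows of all genes. AGGTCA was in 26.3% of Hox windows, 5 of 19 (Hoxd3, Hoxd8, Hoxd10, Hoxb4 and Hoxc4), against 13.8% of all windows. TGATNNAT, a site for Hox and Pbx proteins together, was in Hoxa2 and Hoxb1, against 7.91% of all, and TATAAA was in Hoxd13 alone of the 19, against 13% of all. GC content of the Hox windows had a median of 58% (range 44.4 to 80), against 52% over all genes, and Hoxa5, with 28 CpG pairs, differed in this from Hoxd8, with 6. A match says only that these letters are present.

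Hox genes that read above the array median on all 9 arrays all belonged to paralogue groups 2 to 9. The genes measured in group 1, the most anterior, read below it throughout, as did those of the posterior groups 10 to 13. Of the 10 genes measured in paralogue groups 10 to 13, all 10 lay below the array median on all 9 arrays, whereas in groups 1 to 9 17 of 23 genes lay above it on all 9, 4 below it on all 9, and Hoxa2 and Hoxa4 on both sides. In all, 17 of 33 Hox genes were above the median throughout, beside 58.8% of all genes, and 14 were below it throughout, beside 35.8% of all genes, both near the shares of all genes. Probe sets differ in how brightly they report the same amount of RNA, so levels of different genes are not ranked here. For the 11 Hox genes with several probe sets the means of probe sets of the same gene lay 0.23 (Hoxd13) to 3.45 log2 (Hoxa3) apart. Such gaps can cross the median, so the side of it on which a gene lay depends on the probe set used. The other probe sets of Hoxa3 had means of 6.87, 3.95 and 4.49 log2, and that of Hoxa9 had a mean of 4.05. The plot of Hox levels by cluster and paralogue group shows all 33 genes.

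**Figure D1:**
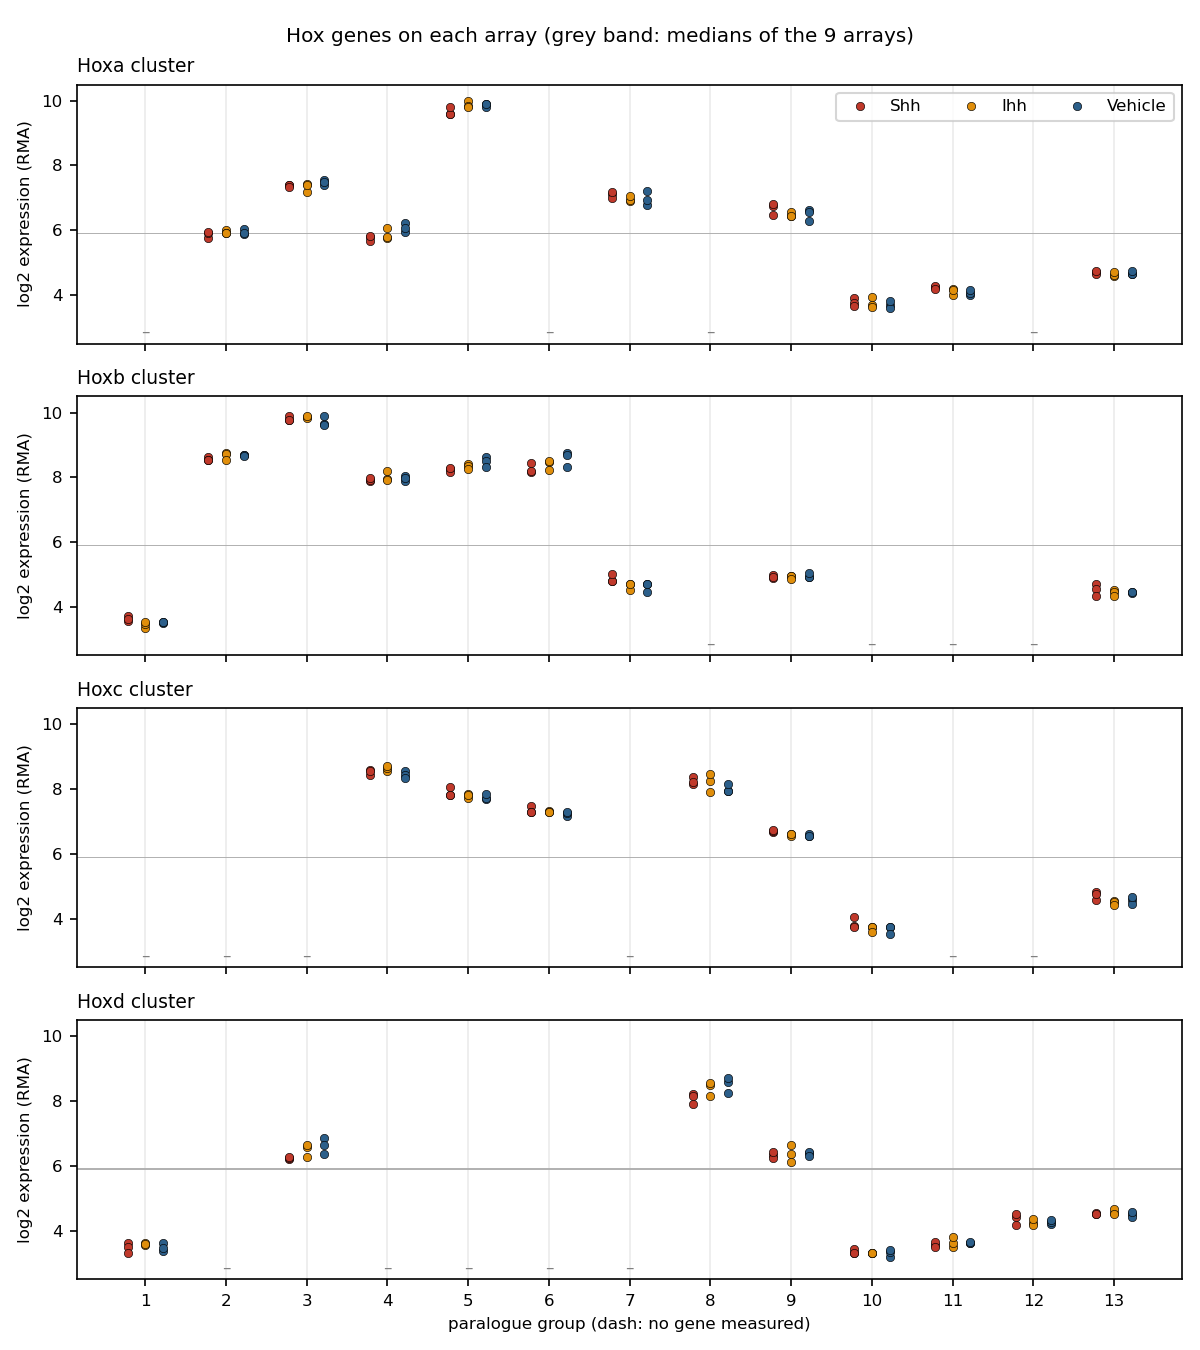
Log2 expression (RMA) of the 33 Hox genes on each of the 9 arrays, 1 panel per cluster, with the paralogue group on the horizontal axis. Points are arrays, coloured and placed from left to right as Shh, Ihh and Vehicle, the grey band spans the array medians (5.87 to 5.92 log2), and a dash marks a place with no gene measured. All points of groups 10 to 13 lie below the band, and the 3 treatments lie close together for every gene.

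Anterior genes, which pattern the hindbrain, pharynx and neck, fell into low and high readings. Hoxb1, which sets the identity of a hindbrain segment, lay at 3.35 to 3.72 log2 over the 9 arrays, and Hoxd1 at 3.31 to 3.63. Hoxa2, which patterns the pharyngeal arches, lay at 5.77 to 6.02 log2, on the array median, and Hoxb2 at 8.54 to 8.74. The group 3 genes were all above the median throughout, Hoxa3, which the thymus and parathyroid need, at 7.18 to 7.54 log2, Hoxb3 at 9.63 to 9.90, and Hoxd3, which patterns neck vertebrae, at 6.22 to 6.84. Of these 7 genes Shh and Vehicle overlapped for Hoxa2, Hoxb3 and Hoxd1.

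Central genes, of groups 4 to 8, held most of the readings above the median. Hoxa5, which lung and gut development need, lay at 9.59 to 10.01 log2, and its other probe set at 9.01 to 9.29. Hoxb5, which acts in the development of the enteric nervous system, lay at 8.16 to 8.61 log2, Hoxb4 at 7.88 to 8.18 and Hoxb6 at 8.16 to 8.75. The Hoxc genes of this stretch were above the median throughout, Hoxc4, which the muscle of the oesophagus needs, at 8.35 to 8.71 log2, Hoxc5 at 7.70 to 8.07, Hoxc6 at 7.17 to 7.48 and Hoxc8, which patterns the trunk, at 7.92 to 8.48. Hoxd8 lay at 7.90 to 8.71 log2, Hoxa7 at 6.79 to 7.21 and Hoxa4 at 5.66 to 6.22. Hoxb7 was the member of the stretch below the median on all arrays, at 4.46 to 5.0 log2, and it was read by a single probe set.

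Of the genes of groups 9 to 13, the Abd-B class, Hoxa9, Hoxc9 and Hoxd9 read above the median by the probe set used, and the rest below it. Hoxa9, a factor of blood progenitors and the trunk, lay at 6.30 to 6.81 log2, Hoxc9 at 6.55 to 6.73 and Hoxd9 at 6.12 to 6.64, whereas Hoxb9 lay at 4.86 to 5.03. Hoxa10, Hoxc10 and Hoxd10 lay at 3.18 to 4.04 log2, and Hoxa11 and Hoxd11 at 3.50 to 4.28. Hoxd12, which with its neighbours is needed for the ileocaecal sphincter, lay at 4.16 to 4.50 log2. Of the group 13 genes, Hoxa13 and Hoxd13 help to form the hindgut and the tips of the limbs. The group 13 genes lay at 4.59 to 4.75 (Hoxa13), 4.32 to 4.71 (Hoxb13), 4.42 to 4.81 (Hoxc13) and 4.43 to 4.67 log2 (Hoxd13). At these low readings RMA often returned the same number on several arrays. Hoxc10, for example, had an identical value on 5 arrays, and 5 of the 10 genes of groups 10 to 13 repeated a value on 3 or more arrays, against 19% of all genes.

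No Hox gene passed the threshold in any comparison of treatments. For both ligands against Vehicle limma called 0 of 33 Hox genes at an adjusted p of 0.05, beside 1.51% of all genes, and 4 of 33 had an unadjusted p under 0.05 (12.1%), beside 13.7% of all genes. These 4 (Hoxa4, Hoxb5, Hoxb6 and Hoxd3) were all lower, beside 8.41% of all genes lower and 5.25% higher. The 6 ligand arrays overlapped the 3 Vehicle arrays for all 33 Hox genes, whereas they lay apart for 2.67% of all genes with the ligands higher and 3.8% with them lower. Differences ran between -0.26 (Hoxd8) and 0.21 log2 (Hoxc8), with a median of 0.04 (19 genes above 0, beside 50.5% of all genes) beside 0.00 over all genes. The 95% intervals of the 33 differences, each for a gene by itself, reached from -0.53 to 0.46 log2, that is 1.45-fold lower and 1.38-fold higher. They hold for the probe sets used, are no joint limit for all 33 genes, and at low readings are narrowed by RMA's compression. The intervals do not show that the genes did not differ, and the size of Ptch1's change, above, lies outside all 33 of them.

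**Figure D2:**
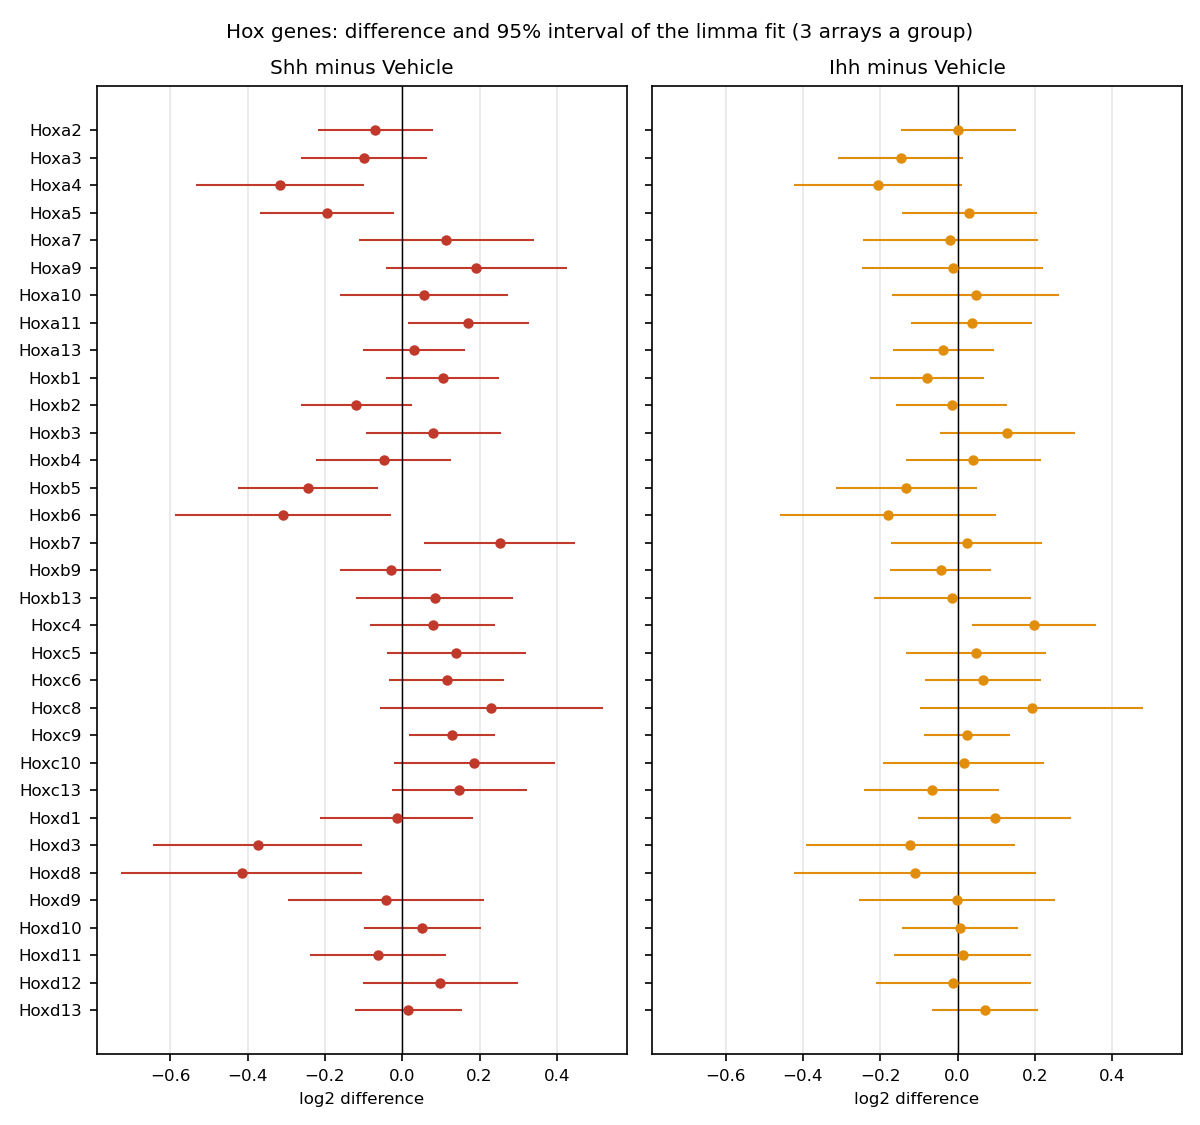
Log2 difference of each Hox gene for Shh minus Vehicle (left) and Ihh minus Vehicle (right), with the 95% interval of the limma fit, which used 3 arrays a group and 1 estimate of spread from all 9. With Shh 9 of 33 intervals leave out 0, with Ihh 1 of 33 does, and none passes the adjusted threshold; both panels share the Vehicle arrays.

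The separate ligands gave the same count of calls. For Shh against Vehicle 0 of 33 passed, beside 1.73% of all genes, and 9 of 33 had an unadjusted p under 0.05 (27.3%), beside 18.8% of all genes; 6 were lower (18.2%, beside 10.7%) and 3 higher (9.09%, beside 8.06%). The Shh arrays lay wholly above the Vehicle arrays for Hoxa11, Hoxb1, Hoxb7 and Hoxc9 (12.1%, beside 9.56% of all genes) and wholly below for Hoxa3, Hoxa4, Hoxb2, Hoxb5, Hoxd3 and Hoxd8 (18.2%, beside 11.4%). For Ihh against Vehicle 0 of 33 passed, beside 0.649% of all genes, and 1 of 33 had an unadjusted p under 0.05 (3.03%), beside 9.19% of all genes; this was Hoxc4, which was higher, beside 3.56% of all genes higher and 5.63% lower. No Hox gene had its Ihh arrays wholly apart from Vehicle, beside 5.67% of all genes with Ihh higher and 8.15% with Ihh lower. The replicate number was also used as a block on the Ihh and Vehicle arrays alone, as the deviations of their same-numbered arrays correlated. The labels give no such pairing, and Ihh 2 correlated at 0.226 with Vehicle 2 and at 0.218 with Vehicle 1. With this block 0 of 33 Hox genes passed and 3 had an unadjusted p under 0.05. Of all genes 280 passed, against 118 without the block. For Shh against Ihh 0 of 33 passed, beside 0.011% of all genes, and 4 of 33 had an unadjusted p under 0.05 (12.1%), beside 13.1% of all genes. Of these Hoxa5 was lower, beside 5.97% of all genes, and Hoxb1, Hoxb7 and Hoxc13 were higher, beside 7.17%. Shh lay wholly above Ihh for these 3, Hoxa11 and Hoxc9 (15.2%, beside 9.37% of all genes) and wholly below for Hoxa5 (3.03%, beside 7.93%), and 18 of 33 differences were above 0, beside 55.8% of all genes. The intervals reached from -0.73 to 0.52 log2 for Shh, from -0.46 to 0.48 for Ihh and from -0.62 to 0.44 for Shh against Ihh. The comparisons share arrays, so their counts are not independent.

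The largest differences were for Shh were of Hoxd8 and of Hoxd3 in the same cluster, both lower than with Vehicle. Hoxd8 lay at 7.90, 8.22 and 8.17 log2 with Shh and at 8.50, 8.54 and 8.17 with Ihh, against 8.58, 8.71 and 8.25 with Vehicle. All 3 Shh arrays were below all 3 Vehicle arrays, but Ihh 3 and Vehicle 3 lay at the level of Shh 2 and Shh 3. The difference was -0.42 ± 0.14 log2 for Shh (SE, adjusted p = 0.158) and -0.11 ± 0.14 for Ihh (adjusted p = 0.904), and the difference between the ligands was -0.30 ± 0.14 (adjusted p = 0.386). The other probe set of Hoxd8 differed by -0.62 log2 for Shh and -0.21 for Ihh, in the same direction and also short of the threshold (adjusted p = 0.0867 and 0.761 when every probe set was tested).

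Hoxd3 lay at 6.22, 6.23 and 6.28 log2 with Shh and at 6.59, 6.63 and 6.27 with Ihh, against 6.84, 6.63 and 6.38 with Vehicle. The Shh arrays were below every Vehicle array and Ihh 3 was again with them. The difference was -0.37 ± 0.12 log2 for Shh (adjusted p = 0.145) and -0.12 ± 0.12 for Ihh (adjusted p = 0.865). Without Vehicle 3 the Shh difference was -0.49 with an adjusted p = 0.0433, so this array decided on which side of the threshold Hoxd3 lay. Over all 18193 genes the calls for Shh were then 675, against 314 with Vehicle 3. Hoxd9, which lies beside Hoxd8 in the cluster, was at 6.34, 6.25 and 6.42 log2 with Shh and 6.64, 6.37 and 6.12 with Ihh, against 6.40, 6.43 and 6.29 with Vehicle, and the groups overlapped.

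In the Hoxb cluster, Hoxb5 and Hoxb6 repeated this order of arrays. Hoxb5 lay at 8.27, 8.16 and 8.27 log2 with Shh and 8.42, 8.36 and 8.26 with Ihh, against 8.61, 8.51 and 8.31 with Vehicle. Its difference was -0.24 ± 0.08 for Shh (adjusted p = 0.155) and -0.13 ± 0.08 for Ihh (adjusted p = 0.725). Without Vehicle 3, where 675 of 18193 genes passed, its Shh difference was -0.33 with an adjusted p = 0.0435. Hoxb6 lay at 8.44, 8.16 and 8.21 log2 with Shh and 8.49, 8.49 and 8.22 with Ihh, against 8.75, 8.67 and 8.31 with Vehicle, where Shh 1 overlapped Vehicle 3. Its difference for Shh was -0.31 ± 0.13 (adjusted p = 0.226). In these 4 genes Vehicle 1 and Vehicle 2 read high, and Vehicle 3, Ihh 3, Shh 2 and Shh 3 read low.

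The mean levels of markers of other cell types moved with these arrays, but not every marker did. The mean of the 8 endothelium markers, such as Cdh5 and Tie1, set against the Vehicle mean, was -0.46, -0.35 and -0.39 log2 with Shh and 0.01, -0.15 and -0.42 with Ihh, against 0.09, 0.08 and -0.17 with Vehicle. The 7 enteric neuron and glia markers measured gave -0.30, -0.24 and -0.19 log2 with Shh and 0.10, -0.03 and -0.23 with Ihh, against 0.08, 0.04 and -0.12 with Vehicle. For Shh all 8 endothelium markers differed from Vehicle by less than 0. Kdr, however, was highest of Vehicle on Vehicle 3 (8.35, 8.11 and 8.50 log2). Emcn overlapped, at 9.70, 9.77 and 9.87 with Shh against 9.65, 9.89 and 9.83 with Vehicle. Of the 7 neuron and glia markers Ret alone was higher with Shh, at 8.48, 8.14 and 8.40 against 8.04, 7.85 and 7.97. Ihh 3 and Vehicle 3 were the lowest of their groups for the means of both lists, as they were for Hoxd3, Hoxd8, Hoxb5 and Hoxb6. The same held for Hoxb2, Hoxd9 and Hoxc10, so this order was not particular to those genes. How many of all genes have it was not counted. Ihh 3 and Vehicle 3 were also the lowest for the epithelium, immune cell, mesothelium and interstitial cell of Cajal markers. That is 6 of the 7 marker lists, the mesenchyme list being the exception. For the immune cell list Ihh 3 (-0.408) and Ihh 1 (-0.403) were nearly level. The summed endothelium level was 11.68 to 11.85 log2 with Shh, 11.71 to 12.16 with Ihh and 12.00 to 12.25 with Vehicle, all 8 markers lay above the array medians on all arrays, and RMA gives no zeros. Gapdh probe sets at the 3' end minus those at the 5' end, which track RNA integrity, gave -0.18 to -0.15 log2 with Shh and -0.19 to -0.04 with Ihh, against -0.08 to 0.03 with Vehicle. The 10 immune cell markers, of which 1 rose and 4 fell for both ligands, beside 1.51% of all genes called, gave a mean of -0.31, -0.35 and -0.33 log2 with Shh and -0.40, -0.36 and -0.41 with Ihh, against 0.00, 0.07 and -0.07 with Vehicle. Here all ligand arrays lay below Vehicle, unlike for any Hox gene. The part of cell make-up and RNA quality in the Hox differences was not tested, and in such bulk samples fewer cells of a type and less RNA per cell cannot be told apart.

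**Figure D3:**
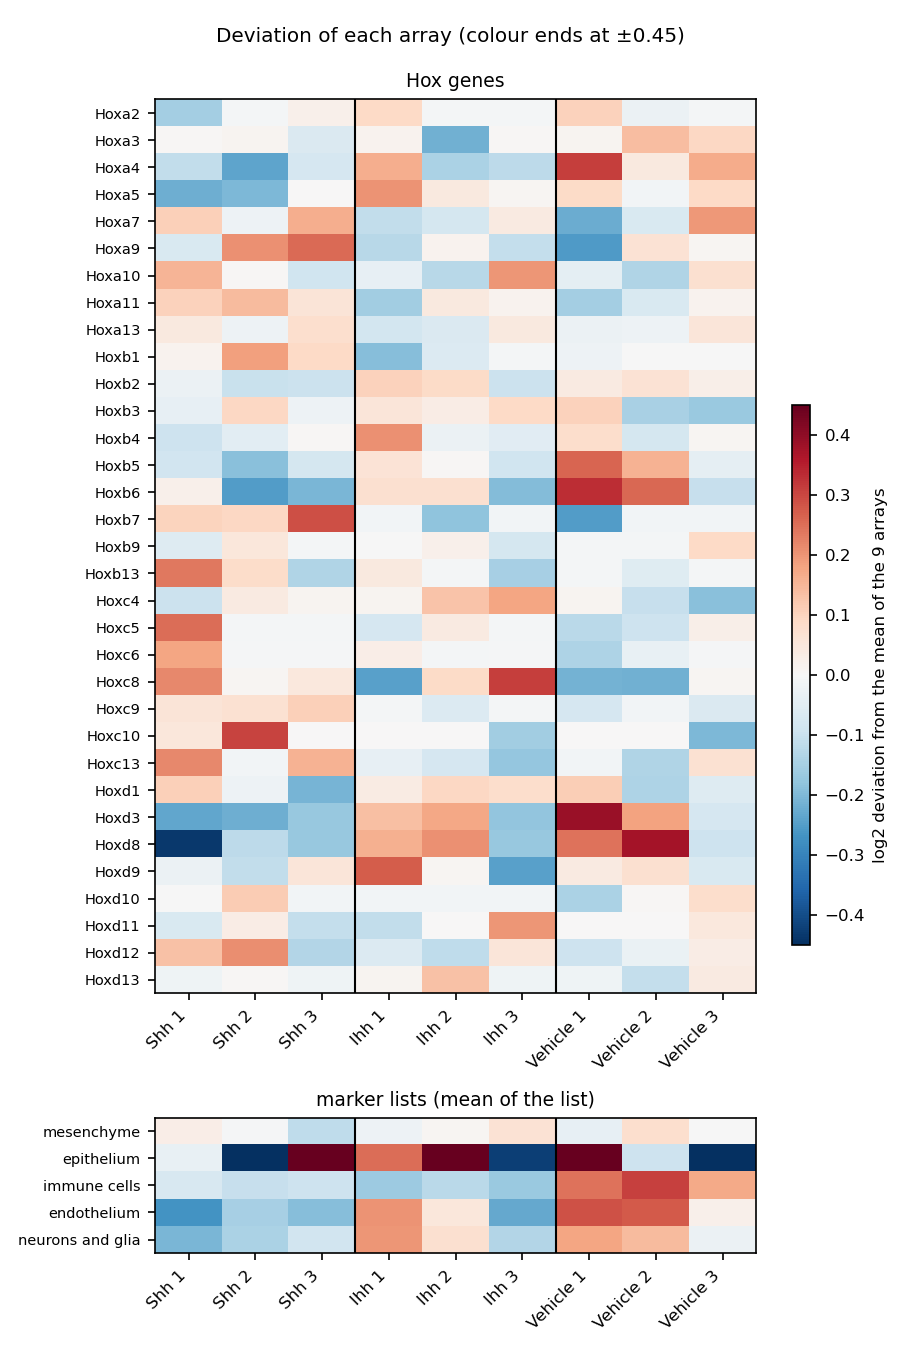
Deviation of each array (columns) from the mean of the 9 arrays in log2 units, for the 33 Hox genes (upper panel) and the means of 5 marker lists (lower panel); red is above and blue below the mean, and colours end at ±0.45, which the epithelium list exceeds. Hoxb5, Hoxb6, Hoxd3 and Hoxd8 are red on Vehicle 1 and Vehicle 2 and blue on Shh 2, Shh 3, Ihh 3 and Vehicle 3. On Shh 1 Hoxb6 lies slightly above its mean (0.02), unlike Hoxb5, Hoxd3 and Hoxd8. The endothelium row is red on Vehicle 1, Vehicle 2 and Ihh 1 and blue on Ihh 3 and the Shh arrays. On Vehicle 3 and Ihh 2 that row lies slightly above its mean, so on Vehicle 3 it differs from these Hox genes.

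In the Hoxa cluster Hoxa4, a gene of the neck and lung, lay at 5.79, 5.66 and 5.83 log2 with Shh and 6.07, 5.76 and 5.79 with Ihh, against 6.22, 5.95 and 6.07 with Vehicle. Shh was below every Vehicle array, and Ihh 1 was the ligand array that overlapped Vehicle. The difference was -0.32 ± 0.10 log2 for Shh (adjusted p = 0.128), the smallest p of all Hox genes for this comparison, and -0.21 ± 0.10 for Ihh (adjusted p = 0.581). The other probe set of Hoxa4, at 3.89 to 4.10 log2, differed by -0.06 for Shh (adjusted p = 0.71 when every probe set was tested). Hoxa5 lay at 9.59, 9.60 and 9.81 log2 with Shh and 10.01, 9.85 and 9.81 with Ihh, against 9.89, 9.79 and 9.89 with Vehicle. Its Shh arrays lay below its Ihh arrays (-0.23 ± 0.08, adjusted p = 0.316), but its other probe set differed by 0.13 in the opposite direction, so the 2 probe sets disagree. Hoxa11 lay at 4.24, 4.28 and 4.20 log2 with Shh and 3.99, 4.18 and 4.16 with Ihh, against 3.99, 4.07 and 4.16 with Vehicle (0.17 ± 0.07 for Shh, adjusted p = 0.231), all below the array medians.

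The 7 Hoxc genes measured lay mostly above 0. With Shh all 7 differences were above 0, at 0.08 to 0.23 log2 with a median of 0.14, beside 53.9% of all genes above 0, and with Ihh 6 of 7 were, at -0.07 to 0.20 with a median of 0.05, beside 46% of all genes. The other clusters were mixed. With Shh 5 of 9 Hoxa, 4 of 9 Hoxb and 3 of 8 Hoxd differences were above 0, and with Ihh 4 of 9, 3 of 9 and 4 of 8. No gene passed the threshold, and the genes of a cluster share these 9 arrays, so the counts are a description. Hoxc8 lay at 8.38, 8.17 and 8.21 log2 with Shh and 7.92, 8.25 and 8.48 with Ihh, against 7.95, 7.95 and 8.17 with Vehicle, with 1 Ihh array below and 2 above the Vehicle range (0.23 ± 0.13 for Shh, adjusted p = 0.366, and 0.19 ± 0.13 for Ihh, adjusted p = 0.757). Hoxc4 lay at 8.44, 8.58 and 8.55 log2 with Shh and 8.55, 8.67 and 8.71 with Ihh, against 8.55, 8.43 and 8.35 with Vehicle (0.20 ± 0.07 for Ihh, adjusted p = 0.395). Ihh 1 and Vehicle 1 had the same value, so these groups touched. Hoxc9 lay at 6.68, 6.70 and 6.73 log2 with Shh and 6.62, 6.57 and 6.62 with Ihh, against 6.55, 6.61 and 6.56 with Vehicle, apart from Vehicle with Shh by 0.13 ± 0.05 (adjusted p = 0.21).

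Hoxb7 had the highest difference of the 33 genes for Shh against Vehicle and for Shh against Ihh, at a reading below the array median. It lay at 4.81, 4.80 and 5.0 log2 with Shh and 4.70, 4.53 and 4.70 with Ihh, against 4.46, 4.70 and 4.70 with Vehicle (0.25 ± 0.09 for Shh, adjusted p = 0.166). Its Shh arrays were above all others, with 4 of the 9 values identical. Hoxb1 lay at 3.55, 3.72 and 3.63 log2 with Shh, against 3.35, 3.48 and 3.53 with Ihh, and at 3.52, 3.54 and 3.54 with Vehicle. Hoxc13, a gene of hair and nails, lay at 4.81, 4.58 and 4.75 log2 with Shh, against 4.56, 4.52 and 4.42 with Ihh, and at 4.58, 4.46 and 4.66 with Vehicle. For both genes every Shh array was above every Ihh array, by 0.18 ± 0.07 for Hoxb1 (adjusted p = 0.32) and 0.22 ± 0.08 for Hoxc13 (adjusted p = 0.322). Hoxd10 to Hoxd13, the posterior Hoxd genes, differed from Vehicle by -0.06 to 0.10 log2 with Shh and -0.01 to 0.07 with Ihh. They read below the median on all 9 arrays, and Hoxd10 gave the same 3.31 log2 on all 3 Ihh arrays. RMA compresses such low values, so these small differences do not show that the genes did not change.

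**Figure D4:**
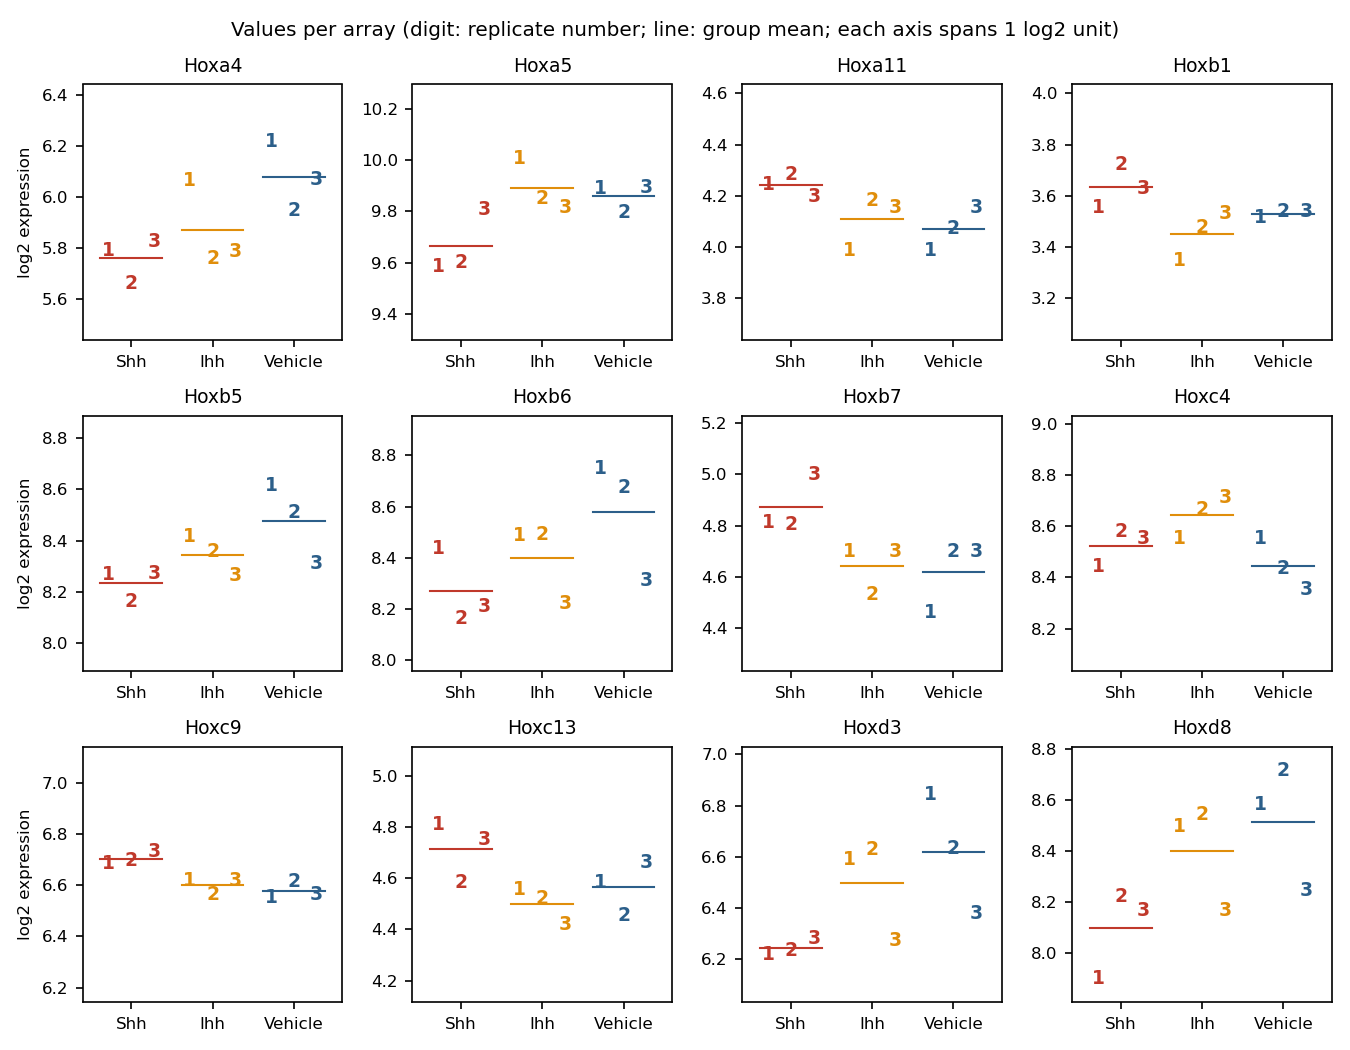
Log2 expression of the 12 Hox genes with an unadjusted p under 0.05 in at least 1 comparison, for Shh, Ihh and Vehicle; digits are the replicate numbers of the arrays, lines are group means, and each vertical axis spans 1 log2 unit. For Hoxd3 the digits of Shh lie together below Vehicle, and replicate 3 of Ihh and of Vehicle lies near them. For Hoxd8 the digits of Shh also lie below Vehicle but are spread from 7.90 to 8.22 log2. There replicate 3 of Ihh and of Vehicle lies near Shh 2 and Shh 3.

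Hoxb2 and Hoxb3 were among the brightest Hox readings. Hoxb3 lay at 9.76, 9.89 and 9.77 log2 with Shh and 9.85, 9.83 and 9.89 with Ihh, against 9.90, 9.65 and 9.63 with Vehicle, and Hoxb2 at 8.61, 8.54 and 8.54 with Shh and 8.74, 8.72 and 8.54 with Ihh, against 8.68, 8.70 and 8.67 with Vehicle. The other probe set of Hoxb3 lay at 8.74, 8.82 and 8.48 log2 with Shh, against 8.88, 8.88 and 8.93 with Vehicle (-0.22, adjusted p = 0.21 when every probe set was tested), while the first differed by 0.08, so the probe sets of Hoxb3 disagree. Within a treatment the median SD over the 33 Hox genes was 0.101 log2, beside 0.0954 over all genes. The most variable Hox genes above the median were Hoxd8 (0.21), Hoxc8 (0.19) and Hoxb6 (0.18), and the steadiest of all was Hoxc9 (0.03).

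Partners and regulators of the Hox genes also gave no call. Of the 8 TALE cofactors measured of 9 listed, limma called 0 for both ligands, beside 1.51% of all genes, and before adjustment 1 was higher and 1 lower (p under 0.05), beside 5.25% and 8.41% of all genes, with a median of 0.00 log2. Pknox2, a relative of the Meis proteins, differed by 0.37 ± 0.08 (adjusted p = 0.0602), Pbx2 by -0.22 ± 0.06 (adjusted p = 0.107) and Meis1 by -0.15 ± 0.07 (adjusted p = 0.373). Of 20 chromatin regulators measured of 21 listed, the Polycomb and trithorax group proteins that hold Hox clusters off or on, 0 were called, beside 1.51% of all genes, and 0 were higher and 3 lower unadjusted, beside 5.25% and 8.41%, with a median of -0.05. The 3 lower were Kmt2a, the methyltransferase that maintains Hox transcription, at -0.20 ± 0.06 (adjusted p = 0.132), Kmt2b and Phc1.

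Of 16 retinoic acid genes measured of 18 listed, 0 were called for both ligands, beside 1.51% of all genes, and 2 were higher and 3 lower unadjusted, beside 5.25% and 8.41% (median -0.06 log2). Retinoic acid is a classical inducer of anterior Hox genes. Aldh1a1, which makes it, differed by 0.51 ± 0.11 log2 (adjusted p = 0.0567), with all ligand arrays above Vehicle, and Cyp26b1, which breaks it down, by -0.60 ± 0.16 (adjusted p = 0.106). Cyp26b1 lay at 7.72, 7.65 and 7.67 log2 with Shh and 8.51, 8.05 and 7.77 with Ihh, against 8.83, 8.40 and 8.26 with Vehicle, so that Ihh 3 and Vehicle 3 were again the lowest of their groups.

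Of 11 regional factors of the gut measured of 13 listed, 0 were called, beside 1.51% of all genes, and 1 was higher and 0 lower unadjusted, beside 5.25% and 8.41% (median 0.01 log2). Nkx2-3, a factor of midgut mesenchyme and spleen, lay at 9.71, 9.51 and 9.56 log2 with Shh and 9.35, 9.52 and 9.93 with Ihh, against 9.09, 9.22 and 9.28 with Vehicle, with all ligand arrays above Vehicle (0.40 ± 0.11, adjusted p = 0.136). Barx1, a factor of stomach mesenchyme, differed by -0.15 ± 0.07 (adjusted p = 0.419). Of the 6 ParaHox and caudal genes, relatives of the Hox genes that include Cdx2 and Pdx1 of gut epithelium, 0 were called and 0 had an unadjusted p under 0.05, and all 6 lay below the array median on all 9 arrays. Cdx2 lay at 4.49 to 4.89 log2 on all arrays, also on those where Cdh1 was high.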

How the data were processed

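The authors deposited log2 values for 45101 probe sets on each array, made with GCOS and RMA per the submitters' processing notes (versions not given). Because RMA matches the arrays' distributions, a change common to all genes is removed. Probe sets with 1 platform gene symbol (34945 of them, 932 with several) gave 18193 genes. A model of 3 group means over the 9 arrays was fitted in R 4.3.3 by limma 3.58.1 (lmFit, then eBayes), and p-values were two-sided, adjusted by Benjamini-Hochberg over all genes, with a threshold of 0.05. Levels, SD within groups and counts are descriptions. Per-array values are given for Hox genes with an unadjusted p under 0.05 in any comparison, the 8 with the highest mean and the 3 with the largest SD above the array median. Hoxd9 was added after its values were seen. From each list of partners and regulators up to 3 genes with the smallest p were named. Cdx2, Pdx1, Cdh1, Cdh5, Tie1, Kdr, Emcn and Ret were added as examples after their values were seen. Members, lists and tests were chosen with earlier results of these data known. Promoters, used in place of protein sequences, are RefSeq's on GRCm38.p6, with the first listed start of a gene. The fit was tested on simulated data. Deviations from group means of same-numbered arrays correlated at 0.226 to 0.543 in all 3 pairs of Ihh and Vehicle, so the numbers were taken to pair these arrays, from the data and not from the labels; with Shh they did not pair. Arrays carry no sequencing depth, and their number limits the precision.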

Additional observations from a re-analysis of the deposited data

How the results depend on the processing

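Counts of Hox genes past the threshold were recomputed after a second quantile normalization, after centring each array, leaving out dim genes or less specific probe sets, averaging or singly testing a gene's probe sets, changing the variance model, weighting arrays, and fitting the compared groups alone (which has no form for both ligands together). All of these gave 0 in the 4 comparisons, with no adjusted p under 0.0545. A replicate block over all arrays also gave 0 of 33 in each, as did the block on Ihh and Vehicle arrays alone, chosen after seeing the data (280 of all genes called, against 118). Over all arrays the block called 522 of all genes for Shh, against 314. Same-numbered arrays correlated at 0.226 to 0.543 for Ihh and Vehicle (other numbers -0.478 to 0.218), -0.158 to 0.141 for Shh and Vehicle and -0.297 to -0.082 for Shh and Ihh. The highest correlation of 6 of 9 arrays was with their own number, and 1 of 9 had this in both other groups. Without single arrays the count ranged from 0 to 2 for Shh against Vehicle, the 2 being Hoxb5 and Hoxd3 without Vehicle 3. It was 0 in the other comparisons. Without Vehicle 3 the calls for Shh over all 18193 genes were 675, against 314 with it, so the rise was not particular to Hox genes. The cause was not tested. Over all genes the calls for both ligands ranged from 99 (without Vehicle 2) to 1126 (array weights), for Shh from 80 to 1017 and for Ihh from 53 to 498, so the share of genes called depends on these choices. No difference of the 18 pairs of Hox gene and comparison at an unadjusted p under 0.05 changed sign. These pairs were picked on the same arrays. The block over all arrays, the changed variance model and the fit of the compared groups alone leave a difference as it was. The kept signs are therefore no independent support. With probe sets tested singly, however, only the probe set used for each gene was followed here. The other probe set of Hoxa5 had the opposite sign, at 0.06 log2 for Shh against Vehicle and 0.13 for Shh against Ihh. The Shh difference of Hoxa5 from Vehicle was -0.07 log2 when its probe sets were averaged, against -0.19 otherwise, and that from Ihh was -0.05, against -0.23. With the median taken over 1 probe set per gene, 12 instead of 17 Hox genes lay above it on all arrays. The SD of the Hox genes was 1.054 times that of all genes at the median, and 1.179 times with absolute deviations.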
